A study of Mus musculus with 9 samples.

Results

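The 10 genes described here encode tumour necrosis factor (Tnf), its 2 receptors (Tnfrsf1a and Tnfrsf1b), the NF-κB subunits and subunit precursors Nfkb1, Nfkb2, Rela and Relb, and the inhibitor and feedback genes Nfkbia, Nfkbiz and Tnfaip3. They were chosen by gene symbol, and all 10 were found among the 54532 gene identifiers of a read-count table for mouse heart. Total RNA of heart tissue was sequenced from male wild-type C57BL/6J mice aged 8 to 10 weeks, with 3 separate mice in each of 3 groups. In the sham group the chest was opened and a thread was passed under the left anterior descending coronary artery without being tied, and saline was given. In the MIRI (myocardial ischemia/reperfusion injury) group the artery was tied for 30 min and reperfused for 24 h, and saline was given. The GXNI group had the same injury and received 9 mL/kg of Guanxinning injection, a preparation of Danshen and Chuanxiong, through the tail vein. The labels name cardiomyocytes as the cell type, yet the defining genes of endothelial cells, macrophages and fibroblasts were counted in every library, so the values are those of whole heart tissue.

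Tumour necrosis factor is a cytokine released by activated macrophages and other cells, and it acts through a widely expressed receptor, TNFR1 (Tnfrsf1a), and a more restricted receptor, TNFR2 (Tnfrsf1b). Receptor signalling activates IκB kinases, which mark the inhibitor IκBα (Nfkbia) for degradation and so release dimers of RelA with p50, the processed product of Nfkb1. RelB works with p52, the processed product of Nfkb2, in the noncanonical branch. Several genes switched on by NF-κB limit the same pathway, among them Nfkbia itself and Tnfaip3, which encodes the ubiquitin-editing enzyme A20. In the heart this pathway is known for the inflammatory response to ischemia and reperfusion.

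Before annotated gene starts, some of these genes hold the sequence that NF-κB dimers recognise. The stretches below are shown because they mark the members with a match to that consensus before an annotated start. RefSeq sequences of GRCm38.p6 were held for 7 of the 10 genes (not for Nfkb1, Relb and Nfkbiz), and the 250 bases before each start were searched on both strands for the κB consensus. A match was found for 3 of the 7, Tnfaip3, Nfkbia and Nfkb2, while 8.23% of all 27025 genes and 7.25% of all 32851 windows held a match. No match in these letters was found for Tnf, Tnfrsf1a, Tnfrsf1b and Rela, which concerns only these windows. In the lines below, written 5′ to 3′ on the strand of the gene, capitals mark the matching bases. The Nfkbia line is the whole window of 250 bases at chr12:55492648-55492897 on the minus strand, which overlaps no annotated exon of the gene.
Nfkbia: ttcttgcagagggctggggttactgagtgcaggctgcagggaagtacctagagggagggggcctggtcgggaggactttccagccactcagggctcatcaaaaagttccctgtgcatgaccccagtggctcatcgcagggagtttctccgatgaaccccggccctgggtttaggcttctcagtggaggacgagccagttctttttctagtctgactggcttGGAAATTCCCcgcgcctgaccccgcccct

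The other matching genes are shown by stretches of 30 bases around each match, because windows of theirs overlap annotated exons of the same gene. In the Tnfaip3 window with matches 110 of the 250 bases were exonic, and in the 3 Nfkb2 windows 250, 0 and 234. The stretches Nfkb2 a and b thus lie wholly in annotated exons, as the GENCODE gene starts further upstream, at base 46304320. Stretch d lies in the window with 234 exonic bases, and stretch c in the window with 0. The GENCODE gene of Tnfaip3 starts at base 19015657 on the minus strand. The Tnfaip3 and Nfkb2 stretches therefore all lie before a RefSeq start but inside the GENCODE gene. The Tnfaip3 stretches lie on the minus strand at chr10:19015516-19015545 and chr10:19015411-19015440. The Nfkb2 stretches lie on the plus strand before 3 annotated starts, at chr19:46304689-46304718, chr19:46304707-46304736, chr19:46305449-46305478 and chr19:46305695-46305724.
Tnfaip3 far: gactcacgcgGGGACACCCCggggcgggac
Tnfaip3 near: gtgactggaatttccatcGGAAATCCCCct
Nfkb2 a: gatcgtcacGGGAATTCCCCccctcggggg
Nfkb2 b: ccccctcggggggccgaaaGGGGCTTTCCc
Nfkb2 c: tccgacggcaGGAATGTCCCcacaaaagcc
Nfkb2 d: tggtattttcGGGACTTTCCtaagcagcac

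The match of Nfkbia ended 20 bases before the start, and those of Tnfaip3 began 125 and 12 bases before it. In the stretch Nfkb2 a, 2 matches overlapped and together began 39 bases before the start. A match of letters is a description of the sequence and not evidence of binding, since no binding was measured.

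**Figure D1:**
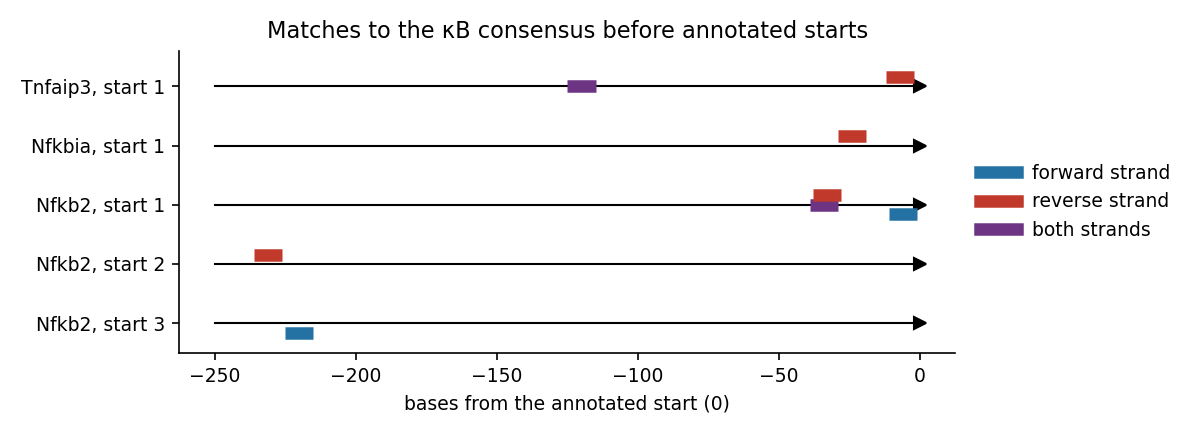
Positions of the matches to the κB consensus (coloured boxes, by strand) in the 250 bases before annotated RefSeq starts of Tnfaip3, Nfkbia and Nfkb2. The horizontal axis gives bases from the start at 0. The Nfkbia match lies 29 to 20 bases before the start, and Nfkb2 has matches before each of 3 starts.

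The libraries held 17119454 to 22811295 counted reads, and 15207 genes passed the filter on low counts over the 9 libraries. In a principal component analysis of these genes, the first component held 64.7% of the variance and did not separate MIRI from GXNI. The sham libraries lay between -59.8 and -52.2. MIRI 2 lay near them at -44.4, whereas MIRI 1 and MIRI 3 lay at 61.6 and 83.2. GXNI 1 lay at -43.5, GXNI 2 at 18.7 and GXNI 3 at 94.4. By rank correlation MIRI 2 was nearest to GXNI 1, and MIRI 1 and MIRI 3 were both nearest to GXNI 3, which was nearest to MIRI 3. GXNI 1 was nearest to sham 1, and GXNI 2 to MIRI 1. No MIRI or GXNI library was thus nearest to a library of its own group. Why MIRI 2 lay apart from the other MIRI libraries was not tested. Why the GXNI libraries lay apart from each other was not tested either, an exchange of labels included in both cases. The groups below follow the labels, and values are given for every library. The tests of the 10 genes and of the pathway lists are also described without MIRI 2 and GXNI 3.

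Apart from Tnf, each of the genes had 44 or more reads in every library. Normalised CPM, which are read counts scaled to a common library size by TMM, were divided by exonic length to compare genes. In sham hearts the levels per kilobase ran from Nfkbia at 26.6 ± 8.55 CPM per kb (SD, n = 3) and Tnfrsf1a at 22.2 ± 4.19 CPM per kb, whose ranges overlapped, to Tnfaip3 at 0.538 ± 0.0781 and Tnf at 0.309 ± 0.157 CPM per kb, whose ranges also overlapped. Between them stood Rela at 11.2 ± 0.292, Nfkb2 at 5.75 ± 0.902, Tnfrsf1b at 4.38 ± 0.38, Nfkb1 at 4.07 ± 0.179, Relb at 1.71 ± 0.300 and Nfkbiz at 1.26 ± 0.302 CPM per kb. The ranges of Tnfrsf1b and Nfkb1 overlapped, as did those of Relb and Nfkbiz, and the other neighbours in this order did not overlap. In MIRI hearts the order of the means was the same, from 47.3 ± 22.9 CPM per kb for Nfkbia to 0.570 ± 0.513 for Tnf. In GXNI hearts Nfkb1 and Relb met at 5.37 CPM per kb each and the rest of the order was kept.

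The ligand Tnf lay near the limit of detection. Its raw counts were 6, 8 and 15 in sham 1, 2 and 3, 25, 0 and 38 in MIRI 1, 2 and 3, and 8, 27 and 45 in GXNI 1, 2 and 3. The 0 in MIRI 2 allows a level of up to 0.168 CPM (3 counts, counting error only). The sham, MIRI and GXNI ranges overlapped, with MIRI 1, MIRI 3, GXNI 2 and GXNI 3 above the sham range. The log2 fold change was 0.93 ± 0.98 (SE) for MIRI against sham and 1.51 ± 0.71 for GXNI against sham, and neither passed the test (edgeR adjusted p = 0.550 and 0.278).

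TNFR1 was the more abundant receptor in every library. Tnfrsf1a was at 62.8, 44.9 and 64.5 CPM in sham 1, 2 and 3, 109.9, 59.5 and 115 CPM in MIRI 1, 2 and 3, and 85.3, 92.3 and 126 CPM in GXNI 1, 2 and 3. All GXNI libraries were above the sham range, whereas MIRI 2 was within it. Tnfrsf1a rose in GXNI against sham by 0.83 ± 0.21 (log2, SE) and so passed the threshold used throughout, 1.5 or more for the fold change and 0.01 or less for the unadjusted p of edgeR's quasi-likelihood test, with an adjusted p of 0.219. For MIRI against sham its log2 fold change was 0.73 ± 0.28 (edgeR adjusted p = 0.151), which did not pass.

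TNFR2, the receptor found mainly on immune and endothelial cells, spread more widely. Tnfrsf1b was at 15.1, 17.2 and 17.9 CPM in sham 1, 2 and 3, 42.5, 10.7 and 41.0 CPM in MIRI 1, 2 and 3, and 17, 24.9 and 52.4 CPM in GXNI 1, 2 and 3. MIRI 2 was below the sham range and GXNI 1 within it, and the groups overlapped. The log2 fold change was 0.92 ± 0.47 in MIRI and 0.92 ± 0.40 in GXNI, each against sham, without passing the test (edgeR adjusted p = 0.240 and 0.256).

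Of the NF-κB subunits, Rela and Relb were above the sham range in each of the 6 MIRI and GXNI libraries, a pattern found in 8.42% of the 15207 genes. Rela, the transactivating subunit of the canonical dimer, was at 33.5, 35.3 and 34.4 CPM in sham 1, 2 and 3, 60.2, 40.4 and 74.5 CPM in MIRI 1, 2 and 3, and 41.4, 47.7 and 85.8 CPM in GXNI 1, 2 and 3. Its sham values were the closest together of all 10 genes (CV 2.61%). The log2 fold change of 0.77 ± 0.23 in MIRI and 0.77 ± 0.28 in GXNI did not pass the test (edgeR adjusted p = 0.106 and 0.228), although the groups did not overlap.

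Relb, the subunit of the noncanonical branch and itself an NF-κB target, passed the test against sham in both groups. It was at 5.37, 6.84 and 7.68 CPM in sham 1, 2 and 3, 23.2, 8.80 and 26.7 CPM in MIRI 1, 2 and 3, and 11.4, 17.5 and 33.7 CPM in GXNI 1, 2 and 3. MIRI 2 exceeded the highest sham library only slightly, while MIRI 1 stood at 3.49 times and MIRI 3 at 4.03 times the sham mean. Relb rose by 1.57 ± 0.41 (log2, SE) in MIRI and by 1.66 ± 0.41 in GXNI, both against sham (edgeR adjusted p = 0.0911 and 0.219). Its call in MIRI was lost when any of sham 1, sham 2, sham 3, MIRI 1 or MIRI 3 was left out, with log2 fold changes from 1.27 to 1.68, and was kept without MIRI 2 at 1.91.

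The precursor genes had the smallest fitted fold changes against sham. Nfkb1, which encodes p105 and p50, was at 46.7, 50.5 and 50.3 CPM in sham 1, 2 and 3, 72.8, 46.4 and 75.5 CPM in MIRI 1, 2 and 3, and 50.7, 51.9 and 91.7 CPM in GXNI 1, 2 and 3. GXNI 1 and GXNI 2 stood barely above the highest sham library, at 1.03 and 1.06 times the sham mean, and MIRI 2 was below the lowest. Its log2 fold change was 0.41 ± 0.20 in MIRI and 0.41 ± 0.25 in GXNI, each against sham (edgeR adjusted p = 0.229 and 0.363). Nfkb2, which encodes p100 and p52, was at 28.1, 21.7 and 29.4 CPM in sham 1, 2 and 3, 41.5, 27.3 and 45.8 CPM in MIRI 1, 2 and 3, and 28.4, 39.3 and 54.5 CPM in GXNI 1, 2 and 3. MIRI 2 and GXNI 1 were within the sham range. Its log2 fold change was 0.54 ± 0.23 in MIRI and 0.64 ± 0.26 in GXNI (edgeR adjusted p = 0.176 and 0.246). Nfkb2 shares 299 exonic bases with Psd and 531 with a noncoding gene on the opposite strand, and the strand setting of the counting is not given in the sources used here, so reads of these partners cannot be told apart.

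The gene of the inhibitor IκBα had the highest mean level per length in each group, although Tnfrsf1a was higher in sham 3, MIRI 2, GXNI 1 and GXNI 2, and it was the most variable in sham hearts after Tnf. Nfkbia was at 56.0, 43.8 and 28.5 CPM in sham 1, 2 and 3, 88.5, 34.6 and 105 CPM in MIRI 1, 2 and 3, and 43.8, 49.4 and 134 CPM in GXNI 1, 2 and 3. MIRI 2, GXNI 1 and GXNI 2 were all within the sham range, and the CV in sham was 32.2%. The log2 fold change was 0.84 ± 0.43 in MIRI and 0.83 ± 0.47 in GXNI, each against sham (edgeR adjusted p = 0.238 and 0.340).

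Nfkbiz, which encodes the nuclear regulator IκBζ, and Tnfaip3 had the largest fitted fold changes of the set in MIRI against sham, and neither passed the edgeR test there or in GXNI against sham. Nfkbiz was at 8.01, 5.10 and 5.81 CPM in sham 1, 2 and 3, 25.45, 6.42 and 27.6 CPM in MIRI 1, 2 and 3, and 10.05, 8.53 and 40.0 CPM in GXNI 1, 2 and 3. MIRI 2 was within the sham range, and GXNI 3 reached 6.35 times the sham mean. The log2 fold change was 1.66 ± 0.52 in MIRI and 1.64 ± 0.62 in GXNI (edgeR adjusted p = 0.116 and 0.232).

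Tnfaip3, the gene of the enzyme A20 that removes activating ubiquitin chains from RIPK1 and other signalling proteins, had the largest fold between its highest and lowest library apart from Tnf. It was at 4.51, 3.42 and 3.73 CPM in sham 1, 2 and 3, 21.0, 2.61 and 18.8 CPM in MIRI 1, 2 and 3, and 4.95, 9.52 and 35.3 CPM in GXNI 1, 2 and 3. GXNI 3 stood at 9.07 times the sham mean and MIRI 2 was below every sham library. The log2 fold change was 1.88 ± 0.68 in MIRI and 2.10 ± 0.70 in GXNI (edgeR adjusted p = 0.138 and 0.223).

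**Figure D2:**
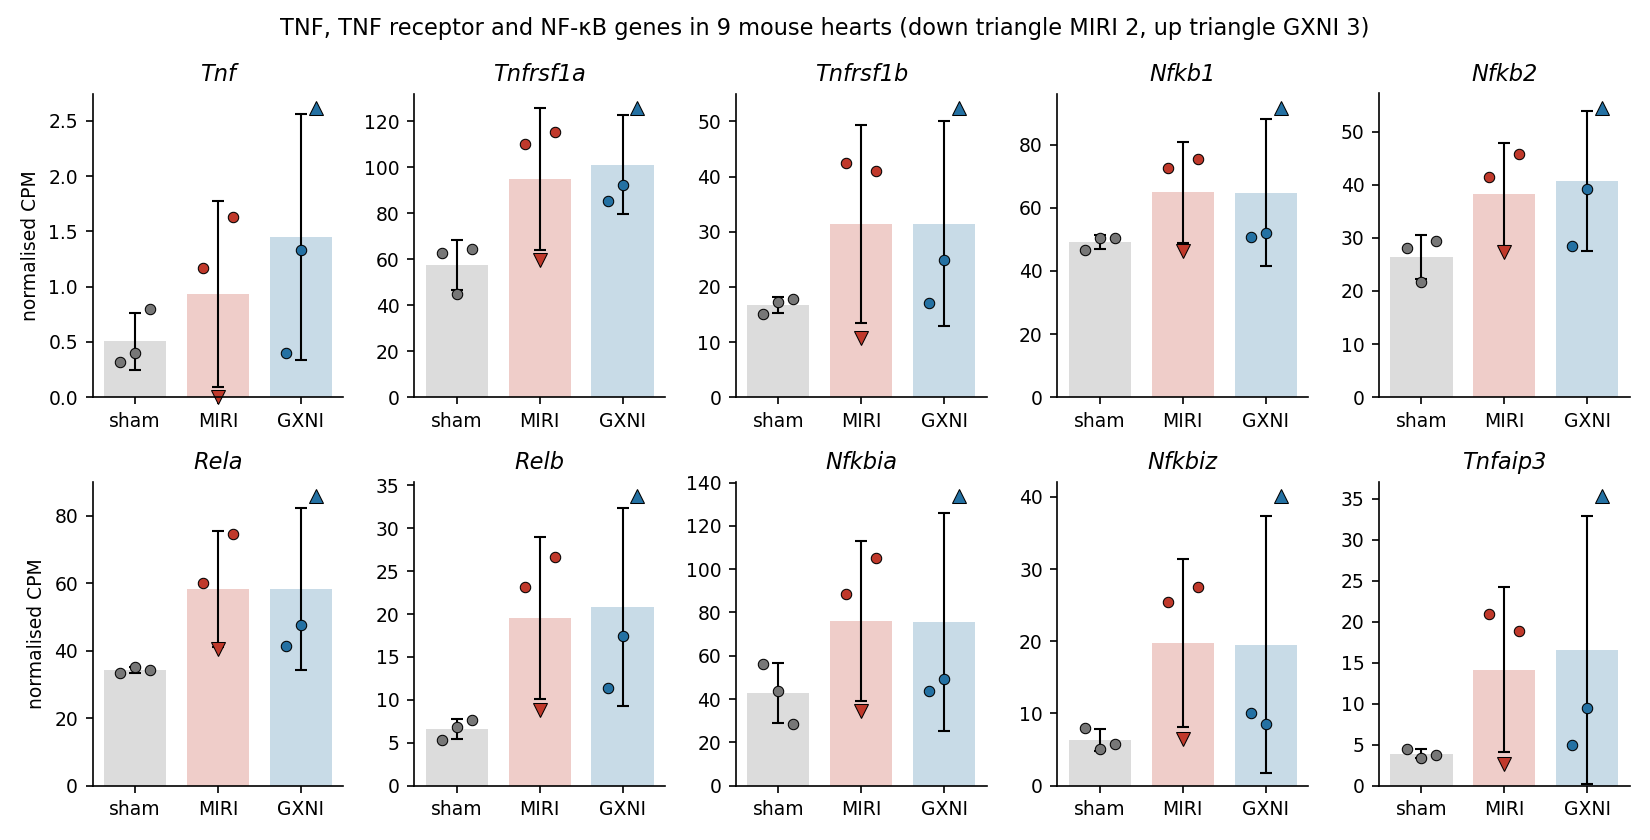
Normalised CPM (vertical axes, linear from 0) of the 10 genes in the 3 sham, 3 MIRI and 3 GXNI libraries; points are libraries, bars are group means and error bars are SD. MIRI 2 (down triangle) is the lowest MIRI library and GXNI 3 (up triangle) the highest of all libraries in every panel, from 2.62 CPM for Tnf to 134 CPM for Nfkbia.

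The libraries were ordered alike across the set. GXNI 3 had the highest value of all 9 libraries for all 10 genes, as it had for 19.5% of all genes. MIRI 1, MIRI 3 and GXNI 3 were the 3 highest libraries for 9 of the 10, the exception being Tnf, and for 20.4% of all genes. For 7 of the 10 GXNI 2 came next in rank below the 3 highest, as it did for 21.4% of all genes. All 10 genes were above the sham range in MIRI 1, MIRI 3 and GXNI 3, against 39.9%, 41.2% and 41.3% of all genes. In GXNI 2, 9 genes were above it and 1 within (36.2% of all genes above), and in GXNI 1, 6 were above and 4 within (31.5% above). In MIRI 2, by contrast, 2 genes were above the sham range, 4 within and 4 below, against 33.8% of all genes above and 32.0% below.

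For MIRI against sham, the comparison of the injury with the operation alone, 1 of the 10 genes passed the test (Relb, higher), while 8.97% of the 14644 genes tested passed in either direction and 6.15% were higher. The fitted log2 fold changes of all 10 were above 0, from 0.41 for Nfkb1 to 1.88 for Tnfaip3, with a median of 0.88 beside -0.0015 over all genes. Groups did not overlap for 2 genes, Rela and Relb, beside 17.4% of all genes that were higher without overlap. With DESeq2 4 genes passed, Rela, Relb, Nfkbiz and Tnfaip3, all higher (DESeq2 adjusted p = 0.0370, 0.00452, 0.0145 and 0.0262). This stood beside 5.34% of the 27898 genes it tested without the filter on low counts, so the share is not like that of edgeR.

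These counts rested on MIRI 2. Without that library 9 of the 10 genes passed, all but Tnf, yet the share of all genes that passed as higher also went up, to 16.9%. The log2 fold changes then ran from 0.60 ± 0.10 for Nfkb1 to 2.36 ± 0.17 for Tnfaip3, with 1.91 ± 0.18 for Relb and 2.08 ± 0.20 for Nfkbiz. The edgeR adjusted p was at most 0.05 for all 10 genes, at 0.0361 for Tnf, as it was for 43.1% of all genes. MIRI 2 was set aside for its place among the libraries and not for a label, so these values describe 2 libraries against 3 and are no independent test of the injury.

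For GXNI against MIRI, which asks whether the treatment changed the injured heart, none of the 10 genes passed the test in edgeR or DESeq2, and none had an unadjusted p under 0.05 in edgeR. Over all 14762 genes, 3 passed (0.0203%), all lower, and 47 had an unadjusted p under 0.05 in edgeR. DESeq2 called 11 of the 28122 genes it tested without the filter on low counts (0.0391%). The ranges of the groups overlapped for all 10 genes, beside 1.22% of all genes higher and 1.49% lower without overlap. The fitted log2 differences lay between -0.01 for Nfkbiz and 0.61 for Tnf, with an edgeR adjusted p of 1 for each. The intervals were wide. The 95% interval of the log2 difference ran from -0.60 to 0.80 for Tnfrsf1a, from -0.81 to 0.83 for Rela, from -1.33 to 1.33 for Nfkbia, from -1.81 to 1.78 for Nfkbiz and from -1.96 to 2.43 for Tnfaip3. A fold change of at least 1.5 in either direction lay inside each of these intervals, so a difference of that size was not detectable with these libraries, and the missing calls do not show that the groups were alike.

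Without MIRI 2 and GXNI 3, the median log2 difference of GXNI against MIRI over all genes was 0.0029. All 10 log2 differences between GXNI 1 and 2 and MIRI 1 and 3 were then below 0. Among them 4 genes passed the unadjusted threshold as lower in GXNI, Tnfrsf1b at -0.98 ± 0.23, Nfkbia at -1.04 ± 0.18, Nfkbiz at -1.50 ± 0.19 and Tnfaip3 at -1.45 ± 0.33, beside 3.47% of the 14984 genes tested. Their edgeR adjusted p lay between 0.182 and 0.188, and 0 genes in all reached an adjusted p of 0.05. With only MIRI 2 left out, or only GXNI 3, none of the 10 genes passed, beside 12 of 15217 and 10 of 15136 genes tested. Since GXNI 3 was the highest and MIRI 2 the lowest of their groups, leaving out both by itself moves GXNI down against MIRI, and these values are a description of the remaining libraries.

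For GXNI against sham, 2 of the 10 genes passed, Tnfrsf1a and Relb, both higher, while 4.21% of the 14695 genes tested passed in either direction and 2.67% were higher. The median log2 fold change of the 10 was 0.88 beside 0.01 over all genes, with the lowest at 0.41 for Nfkb1. GXNI and sham did not overlap for 6 genes (Tnfrsf1a, Nfkb1, Rela, Relb, Nfkbiz and Tnfaip3), beside 13.9% of all genes that were higher without overlap. With DESeq2 4 genes passed, Tnfrsf1a, Relb, Nfkbiz and Tnfaip3, all higher. This stood beside 3.56% of the 27956 genes it tested without the filter on low counts. Without GXNI 3, Tnfrsf1a and Relb still passed at 0.63 ± 0.17 and 1.13 ± 0.24, beside 2.11% of all genes that were higher, while the log2 fold changes of the others were lower than with all libraries. They were then 0.90 ± 0.31 for Tnfaip3, 0.78 ± 0.65 for Tnf, 0.56 ± 0.23 for Nfkbiz, 0.38 ± 0.11 for Rela, 0.36 ± 0.19 for Nfkb2, 0.33 ± 0.19 for Tnfrsf1b, 0.13 ± 0.27 for Nfkbia and 0.07 ± 0.10 for Nfkb1. Without GXNI 1, in contrast, 7 of the 10 passed as higher beside 10.7% of all genes. Both calls, Tnfrsf1a and Relb, were lost when any of sham 1, sham 2, sham 3 or GXNI 2 was left out, with log2 fold changes from 0.67 to 0.92 for Tnfrsf1a and from 1.53 to 1.78 for Relb, and that of Tnfrsf1a also with all 9 libraries in 1 fit, at 0.82. The MIRI and GXNI comparisons with sham share the same 3 sham libraries, so their like values are not independent of each other.

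**Figure D3:**
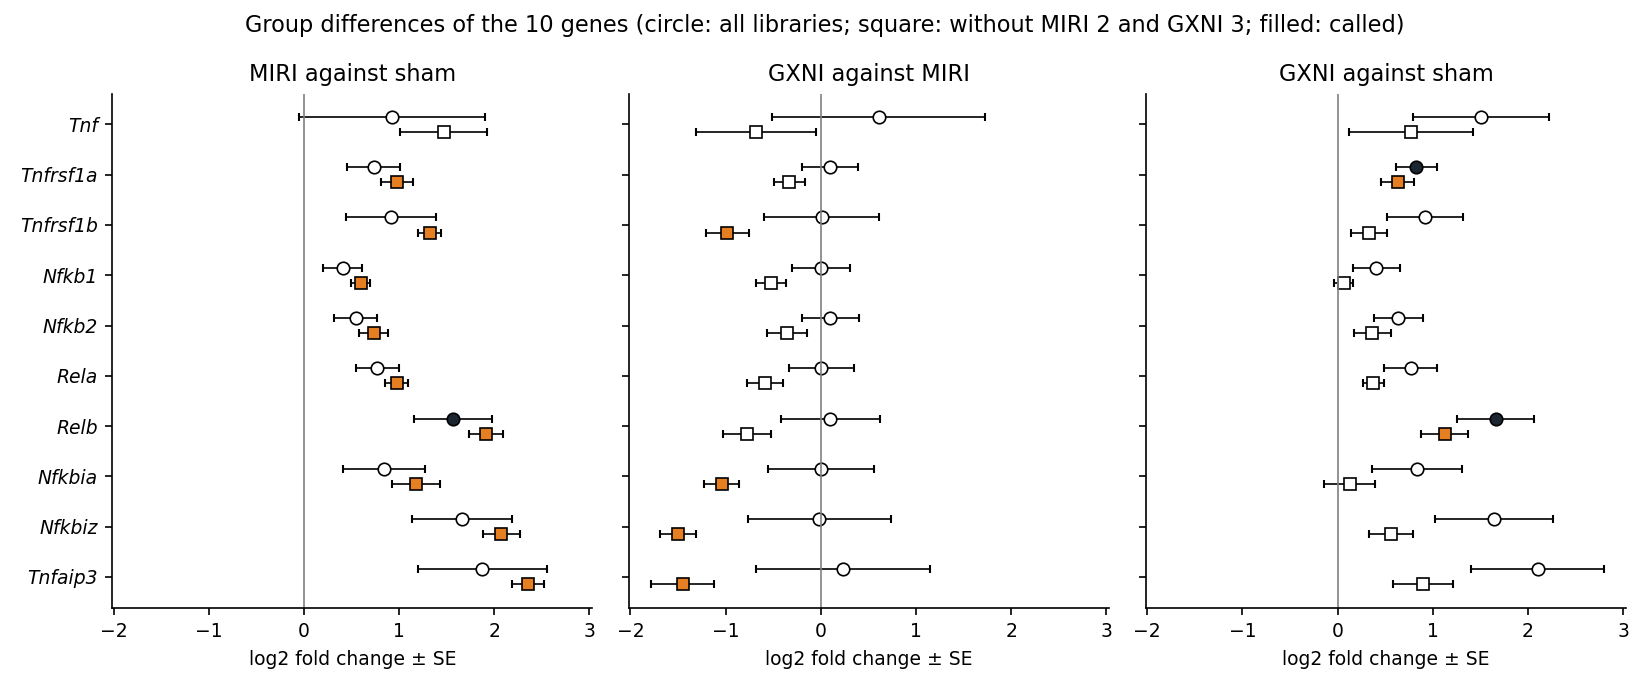
Fitted log2 fold changes (horizontal axes) with SE bars of the 10 genes in the 3 comparisons, with all libraries (circles) and without MIRI 2 and GXNI 3 (squares); filled symbols passed the threshold (fold change 1.5 or more, unadjusted p 0.01 or less). In GXNI against MIRI the circles lie between -0.01 and 0.61 and all squares lie below 0, down to -1.50 for Nfkbiz.

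Marker genes of several cell types also differed between the libraries. The summed level of 10 neutrophil genes, all of them counted and only Fpr1 at 0 in some libraries, was 151 to 203 CPM in sham, 1091, 231 and 777 CPM in MIRI 1, 2 and 3, and 623, 644 and 803 CPM in GXNI 1, 2 and 3. The 9 macrophage and monocyte genes, none at 0, summed to 553 to 652 CPM in sham, 382 to 730 CPM in MIRI with MIRI 2 lowest, and 467 to 675 CPM in GXNI. The 8 cardiomyocyte genes, none at 0, summed to 41910 to 44615 CPM in sham, to 28882 and 32594 CPM in MIRI 1 and MIRI 3 but 46017 CPM in MIRI 2, and to 30254 to 37451 CPM in GXNI. The 6 endothelial genes, none at 0, ranged from 556 to 785 CPM in sham, from 662 to 941 CPM in MIRI and from 614 to 1047 CPM in GXNI. The 6 fibroblast genes, none at 0, ranged from 708 to 778 CPM, from 564 to 686 CPM and from 476 to 898 CPM in the same order. The 4 genes listed as atrial were Myl7, Sln, Myl4 and Nppa, with Myl7 and Sln at 0 in some libraries. Their sum ranged from 40.3 to 84.0 CPM in sham, from 171 to 668 CPM in MIRI and from 56.0 to 730 CPM in GXNI. It was highest in MIRI 3 and GXNI 3. The sum was not split by gene, and whether it reflects atrial tissue was not tested. The 6 T and B lymphocyte genes, with Cd3e, Cd3g, Cd79a and Ms4a1 at 0 in some libraries, summed to at most 6.05 CPM in any library. The 4 mesothelial genes (Upk3b and Lrrn4 at 0 in some libraries) summed to 8.03 to 19.3 CPM in sham, 8.95 to 10.4 CPM in MIRI and 7.61 to 55.6 CPM in GXNI, and the 4 adipocyte genes, each at 0 in some libraries, to at most 3.74 CPM, in MIRI 2. The part of these cells in the values of the 10 genes was not tested, and in whole tissue a change in the number of cells of a type and a change in RNA per cell cannot be told apart.

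Ratios between members within a library do not depend on sequencing depth, and 7 were computed from counts per kb. Nfkb1 to Rela, the genes of the canonical p50 and RelA pair, stood at 0.354, 0.364 and 0.372 in sham 1, 2 and 3, 0.308, 0.292 and 0.258 in MIRI 1, 2 and 3, and 0.312, 0.277 and 0.272 in GXNI 1, 2 and 3. All 6 injured hearts, MIRI 2 included, were below the lowest sham heart. Relb to Rela was 0.127 to 0.177 in sham, 0.304, 0.172 and 0.283 in MIRI 1, 2 and 3, and 0.218, 0.289 and 0.311 in GXNI 1, 2 and 3, with MIRI 2 inside the sham range and the other injured hearts above it. Tnfrsf1b to Tnfrsf1a was 0.163 to 0.261 in sham, 0.122 to 0.262 in MIRI and 0.135 to 0.283 in GXNI, so the groups overlapped. Tnfaip3 to Nfkbia was 0.0174 to 0.0292 in sham, 0.0168 to 0.0529 in MIRI and 0.0252 to 0.0589 in GXNI, again with overlap. Nfkb1 to Rela was picked out of the 7 after its values were seen, so it is given without a test.

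**Figure D4:**
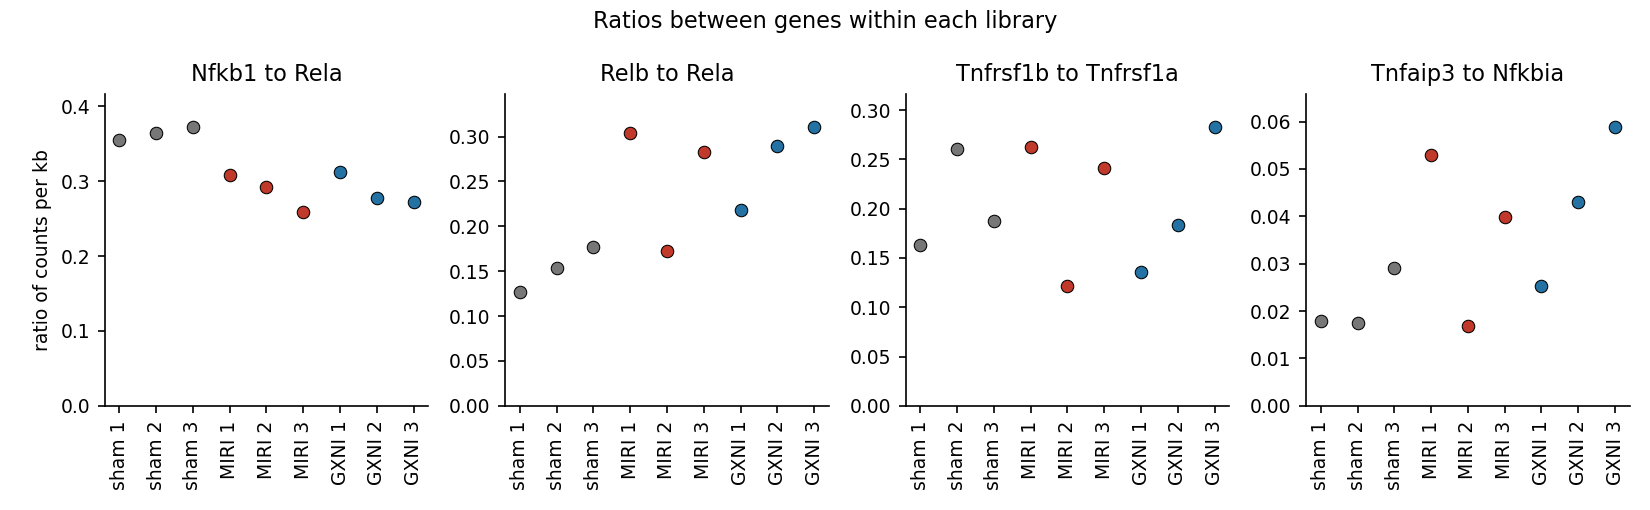
Ratios of counts per kb between pairs of members (vertical axes, linear from 0) in each of the 9 libraries, coloured by group. Nfkb1 to Rela is 0.354 to 0.372 in sham and 0.258 to 0.312 in all 6 MIRI and GXNI libraries, whereas Relb to Rela overlaps between sham and MIRI but not between sham and GXNI, and the other ratios overlap between groups.

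With all libraries, the listed genes of the TNF receptor complex, a list without the receptors themselves, passed the test in no comparison. Of 17 genes of the TNF receptor complex, all tested, none passed, beside 6.15% of all genes higher in MIRI against sham, 0.0203% called in GXNI against MIRI and 2.67% higher in GXNI against sham, and their median log2 fold change was 0.27 for MIRI against sham, 0.01 for GXNI against MIRI and 0.14 for GXNI against sham, beside medians of all genes between -0.0015 and 0.01. The smallest unadjusted p in MIRI against sham belonged to Tab2, an adaptor of the kinase TAK1, at a log2 fold change of 0.30 ± 0.11, and to Birc3, an inhibitor of apoptosis that ubiquitinates RIPK1, at 1.22 ± 0.46 (edgeR adjusted p = 0.137 and 0.146). Birc3, like most of the 10 genes, had its highest counts in MIRI 1, MIRI 3 and GXNI 3, but GXNI 1 stood above GXNI 2. Its counts were 250, 220 and 204 in sham 1, 2 and 3, 750, 167 and 849 in MIRI 1, 2 and 3, and 343, 322 and 833 in GXNI 1, 2 and 3. In GXNI against sham Birc3 was at 1.22 ± 0.45 and Tab1 at -0.36 ± 0.13 (edgeR adjusted p = 0.229 and 0.230). The linear ubiquitin ligase gene Rnf31 was, in GXNI against MIRI, at 0.32 ± 0.17 and the adaptor gene Traf5 at -0.25 ± 0.27 (edgeR adjusted p = 1 for each).

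Of 8 genes of the IκB kinases and the noncanonical branch, 2 rose in MIRI against sham, 0 passed in GXNI against MIRI and 1 rose in GXNI against sham, beside 6.15% of all genes higher, 0.0203% called and 2.67% higher in the same order. Tnfrsf12a, the receptor of the cytokine TWEAK, rose by 3.64 ± 0.51 (log2, SE) in MIRI and by 3.37 ± 0.91 in GXNI (edgeR adjusted p = 0.0607 and 0.219). Its counts were 196, 499 and 578 in sham 1, 2 and 3, 6282, 2518 and 8804 in MIRI 1, 2 and 3, and 712, 3426 and 8106 in GXNI 1, 2 and 3, so that MIRI 2, unlike in most members, stood well above sham. Traf3, an inhibitor of the noncanonical branch, rose by 0.72 ± 0.20 in MIRI (edgeR adjusted p = 0.0990). Between GXNI and MIRI the smallest p belonged to Tnfrsf12a at -0.27 ± 0.83 and Ikbkg, the regulatory subunit of the kinase complex, at -0.06 ± 0.19 (edgeR adjusted p = 1 for each). The median log2 fold change of the 8 genes was 0.36, -0.03 and 0.27 in the 3 comparisons.

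The 5 other subunit and IκB genes, among them the lymphoid subunit gene Rel, had no call, beside the same shares of all genes. Their median log2 fold change was 0.93 for MIRI against sham, -0.10 for GXNI against MIRI and 0.98 for GXNI against sham. Rel was at 0.66 ± 0.20 and Nfkbid, a nuclear IκB protein, at 1.72 ± 0.72 in MIRI against sham (edgeR adjusted p = 0.108 and 0.173). In GXNI against sham Bcl3, another nuclear IκB protein, was at 0.98 ± 0.47 and Nfkbid at 1.28 ± 0.67 (edgeR adjusted p = 0.284 and 0.307). Nfkbib was, in GXNI against MIRI, at -0.10 ± 0.21 and Nfkbid at -0.42 ± 0.90 (edgeR adjusted p = 1 for each).

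Of 9 other negative feedback genes, 2 rose in MIRI against sham, beside 6.15% of all genes. None passed in GXNI against MIRI or in GXNI against sham, beside 0.0203% and 4.21% of all genes called. Otulin, which removes linear ubiquitin chains, rose by 1.19 ± 0.25 and Ier3, an early response gene, by 1.77 ± 0.49 (edgeR adjusted p = 0.0759 and 0.0991). Otulin was counted 461, 423 and 436 times in sham 1, 2 and 3, 1097, 591 and 1633 times in MIRI 1, 2 and 3, and 354, 1008 and 1045 times in GXNI 1, 2 and 3. All MIRI libraries had more Otulin counts than any sham library, whereas GXNI 1 had fewer. In GXNI against sham the smallest p belonged to the deubiquitinase gene Cyld at 0.39 ± 0.16 and to the A20-binding protein gene Tnip2 at 0.61 ± 0.27 (edgeR adjusted p = 0.252 and 0.257). For GXNI against MIRI Tnip2 was at 0.28 ± 0.40 and Otulin at -0.28 ± 0.47 (edgeR adjusted p = 1 for each). The median of the 9 genes was 0.69, -0.04 and 0.72 in the 3 comparisons.

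Classical targets of NF-κB gave the largest changes of the pathway. Of 16 genes, 7 rose in MIRI against sham, beside 6.15% of all genes higher, and 0 fell, with a median log2 fold change of 2.64. In GXNI against sham 2 rose, beside 2.67% of all genes, with a median of 2.06. The neutrophil chemokine gene Cxcl2 rose by 6.42 ± 1.48 (log2, SE) in MIRI and by 5.94 ± 1.66 in GXNI (edgeR adjusted p = 0.0800 and 0.219). Its counts were 9, 12 and 6 in sham 1, 2 and 3, 1148, 13 and 1543 in MIRI 1, 2 and 3, and 7, 286 and 1243 in GXNI 1, 2 and 3. MIRI 2 and GXNI 1 therefore stood near the sham level, as for Il6, which rose by 5.74 ± 1.52 in MIRI (edgeR adjusted p = 0.0936) with 383, 3 and 568 counts in MIRI 1, 2 and 3. Tnfaip6, which encodes a hyaluronan-binding protein, rose by 2.24 ± 0.57 in GXNI against sham (edgeR adjusted p = 0.219), with 24 to 27 counts in sham and 79, 61 and 208 in GXNI 1, 2 and 3. In GXNI against MIRI none of the 16 passed, beside 0.0203% of all genes called, and the median was -0.06. The smallest p there belonged to the transcription factor gene Irf1 at 0.55 ± 0.42 and to Bcl2a1b, a survival gene with close copies in the mouse genome whose reads may be split among them, at -1.07 ± 1.14 (edgeR adjusted p = 1 for each).

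The list counts also rested on MIRI 2 and GXNI 3, an alternative for the lists that was chosen after seeing the data. Without MIRI 2, 12 of the 16 targets, 6 of the 9 other feedback genes, 4 of the 5 other subunit and IκB genes, 4 of the 8 kinase and noncanonical genes and 4 of the 17 receptor complex genes passed as higher in MIRI against sham, beside 16.9% of all genes. Of the lists, 1 feedback gene then passed as lower, beside 13.3% of all genes. Cxcl2 was then at a log2 fold change of 6.99 ± 0.22, Il6 at 6.31 ± 0.41, Tnfrsf12a at 3.94 ± 0.39 and Birc3 at 1.61 ± 0.14. Without both libraries, 6, 2, 2, 1 and 2 genes of the same lists passed as lower in GXNI against MIRI, beside 3.47% of all genes, and 0 passed as higher, beside 1.52%. Leaving out a MIRI library near sham and the highest GXNI library by itself lowers these differences. Without GXNI 3, 3 targets passed as higher in GXNI against sham, beside 2.11% of all genes, and no gene of the other lists passed in either direction (1.46% of all genes lower). Tnfaip6 still passed there at 1.37 ± 0.27, whereas Cxcl2 at 3.94 ± 1.25 and Tnfrsf12a at 2.22 ± 0.68 did not.

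The gene most like each member over the 9 libraries was sought among 15207 genes, other members left out, by the Pearson correlation of log2 CPM. These correlations are descriptions over the same 9 libraries, which share their injury and composition differences. The likeness was closest for Rela and Tsc22d2 (r = 0.999, rho = 0.983). Nfkbiz was most like Cggbp1 (r = 0.998, rho = 1) and Relb most like Fosb, an immediate early transcription factor gene (r = 0.997, rho = 1). Tnfrsf1b was most like Tyrobp, an adaptor of myeloid receptors (r = 0.995, rho = 0.917), Nfkb1 like Nuak2 (r = 0.995, rho = 0.967), and Tnfaip3 like Mxd1 (r = 0.994, rho = 0.967). Nfkb2 was most like the asparagine synthetase gene Asns (r = 0.990, rho = 0.983), Nfkbia like Gnl2 (r = 0.988, rho = 0.967), Tnfrsf1a like Mcoln2 (r = 0.986, rho = 0.933) and Tnf like Ms4a4c (r = 0.982, rho = 0.933). Some of these partner genes had few reads. Mcoln2 had 3, 1 and 3 counts in sham 1, 2 and 3 and 2 in MIRI 2. Fosb had 4, 11 and 11 counts in sham 1, 2 and 3 and 17 in MIRI 2. The correlations with Mcoln2 and Fosb therefore rest in part on low counts. Between members r ran from 0.591 for Tnf and Rela to 0.978 for Tnfrsf1b and Tnfaip3.

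By the annotation of GRCm38 (GENCODE M21), all 10 genes are protein coding. Tnf lies at chr17:35199381-35202007 on the minus strand, Tnfrsf1a at chr6:125349362-125362484 on the plus strand and Tnfrsf1b at chr4:145213463-145246870 on the minus strand. Nfkb1 lies at chr3:135584655-135691547 (minus), Nfkb2 at chr19:46304320-46312385 (plus), Rela at chr19:5637483-5648130 (plus) and Relb at chr7:19606217-19629438 (minus). Nfkbia lies at chr12:55489410-55492647, Nfkbiz at chr16:55811375-55838899 and Tnfaip3 at chr10:19000910-19015657, all on the minus strand. Merged exonic length ran from 1610 bases for Nfkbia to 12061 bases for Nfkb1, whose 26 merged exons overlap the same-strand locus Gm43430 only outside exons.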

How the data were processed

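Total RNA of heart tissue from 9 mice was sequenced. The authors discarded reads of low quality or with adapter or poly-N sequence, mapped the rest to the mouse genome (mm10 per the labels) by HISAT2, counted reads per gene with featureCounts of Subread and deposited the raw counts of each library. Versions, annotation and strand setting are not given in the sources used here. The table held 54532 identifiers, 54409 with a symbol, and no columns of other samples. Doses, ages and operations come from the study's methods.

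Groups followed the labels. Each comparison used its 6 libraries in edgeR 4.0.16 (R 4.3.3) with filterByExpr, TMM and the quasi-likelihood F test. Calls needed a fold change of 1.5 or more with an unadjusted p of 0.01 or less, as in the study. The adjusted p is Benjamini-Hochberg over all genes tested. The SE was derived from the F statistic. CPM used TMM over 9 libraries, and log2 CPM for the correlations a prior count of 0.5. Alternatives were DESeq2 1.42.0, RLE, no filter, all libraries in 1 fit, a replicate block, an adjusted p of at most 0.05, mitochondrial genes left out, and libraries left out. The edgeR test was tested on simulated data and recovered 196, 196 and 197 of 200 genes changed by a log2 of 2 among 14426, 14510 and 14465 genes for MIRI against sham, GXNI against MIRI and GXNI against sham. Of the unchanged genes, 0.942%, 0.950% and 0.827% were called in the same order. The simulated counts had the same fixed dispersion for every gene and no differences between libraries of a group beyond it. This recovery therefore checks the procedure and does not measure the power of the real comparisons.

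The members and lists were chosen with earlier results of these data known. Of each pathway list, the called genes with the 2 largest changes in each direction were named, or the 2 with the smallest p. With 17119454 to 22811295 counts per library, 3 counts correspond to 0.132 to 0.175 CPM.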

Additional observations from a re-analysis of the deposited data

How the results depend on the processing

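The number of the 10 genes that passed depended on the settings. In MIRI against sham 1 passed, but 0 at an adjusted p of at most 0.05, 4 without a filter, 4 with DESeq2, 0 with all 9 libraries in 1 fit, 9 without MIRI 2 and GXNI 3 and 0 to 9 with 1 library left out. The corresponding counts over all genes were 1313, then 2, 2406, 2251, 800, 4592 and 514 to 4592. In GXNI against MIRI 0 passed, and 4 without both libraries. Over all genes 3 passed, then 0 by adjusted p, 10 without a filter, 11 with DESeq2, 9 in 1 fit, 748 without both libraries and 1 to 12 with 1 library left out. In GXNI against sham 2 passed, then 0 by adjusted p, 4 without a filter, 4 with DESeq2, 1 in 1 fit and 0 to 7 with 1 library left out, and 618 of all genes passed, then 0, 1425, 1401 and, with 1 library left out, 175 to 2665. Of the receptor complex, kinase, other subunit, other feedback and target lists, 0, 2, 0, 2 and 7 genes passed in MIRI against sham and 4, 4, 4, 7 and 12 without MIRI 2. In GXNI against MIRI 0 of each passed, and 2, 1, 2, 2 and 6 without both libraries. In GXNI against sham 0, 1, 0, 0 and 2 passed, and 0, 0, 0, 0 and 3 without GXNI 3. RLE normalisation and leaving out mitochondrial genes moved no count of the 10 genes. The cause of the higher counts without a filter and with DESeq2 was not tested.

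No direction against sham turned under any setting run. In GXNI against MIRI, where the log2 differences were near 0, signs turned in 39 of 130 refits of single genes. Without both libraries they were -0.68 for Tnf, -0.33 for Tnfrsf1a, -0.98 for Tnfrsf1b, -0.52 for Nfkb1, -0.36 for Nfkb2, -0.58 for Rela, -0.78 for Relb and -1.45 for Tnfaip3. In 1 fit of 9 libraries they were -0.0011 for Tnfrsf1b, -0.0038 for Nfkb1 and -0.0033 for Rela, with DESeq2 -0.0027 for Nfkb1 and -0.0017 for Rela, and without a filter 0.0056 for Nfkbia. With 1 library left out they ran from -0.13 to 1.25 for Tnf, -0.14 to 0.25 for Tnfrsf1a, -0.58 to 0.30 for Tnfrsf1b, -0.33 to 0.15 for Nfkb1, -0.17 to 0.30 for Nfkb2, -0.38 to 0.21 for Rela, -0.43 to 0.39 for Relb, -0.70 to 0.29 for Nfkbia, -1.09 to 0.34 for Nfkbiz and -0.96 to 0.66 for Tnfaip3.

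The labels give no pairing of the mice by replicate number. Same-numbered deviations correlated at -0.445, 0.128 and 0.701 between GXNI and MIRI. Between MIRI and sham they correlated at -0.085, 0.053 and 0.108, and between GXNI and sham at 0.108, -0.076 and 0.118. With the replicate block, 1 of the 10 genes passed in MIRI against sham (Tnfrsf1a at 0.69 in place of Relb at 1.44), 0 in GXNI against MIRI (Nfkb1 at -0.017, Rela at -0.023) and 2 in GXNI against sham, with 1065, 3 and 573 of all genes. Depth limits Tnf most, at 0 to 45 counts a library.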
